A study of Homo sapiens with 24 samples.

Results

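Chromosome 22q11.2 is the proximal long arm of chromosome 22, and 245 of the 6236 peaks in 6 lists from a MYC-tag chromatin immunoprecipitation study began there. The members are all peaks of chromosome 22 whose 0-based start lies from 17900000 to 25899999 (GRCh37), a window of 8 Mb that matches bands 22q11.21, 22q11.22 and 22q11.23. The window was chosen by its crowding with peaks in the longest of these lists, so the numbers of peaks in it are a description and carry no test. The label names the CRKL gene. Gene positions on GRCh37 were not at hand, so no peak is assigned to CRKL or another gene, and the sequence under the peaks was not analysed.

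PC9 is a human lung adenocarcinoma cell line driven by mutant EGFR, and PC9-OR is its osimertinib-resistant derivative. PC9-OR cells were grown in 1 uM osimertinib, an EGFR kinase inhibitor, and PC9 cells were untreated, so line and drug cannot be told apart. PC9 cells were wild type or overexpressed METTL7A-MYC-tag-FLAG. PC9-OR cells were wild type or overexpressed METTL7A-MYC-tag-FLAG, METTL7A-MYC-tag-FLAG-K86A or the empty vector EV-MYC-tag-FLAG. METTL7A belongs to the methyltransferase-like proteins and sits on endoplasmic reticulum membranes and lipid droplets. Each of these 6 groups had 2 immunoprecipitated and 2 input libraries, and 1 peak list was analysed per immunoprecipitated group. No source used here gives the promoter behind the overexpression or says whether a line is 1 clone. The MYC tag is taken from the human c-MYC protein, and its part in any peak was not tested.

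Band 22q11.21 carries low-copy repeats, long near-identical segmental duplications between which the chromosome recombines, and loss of the segment between them causes the 22q11.2 deletion syndrome. CRKL encodes an adaptor protein that relays signals from receptor tyrosine kinases, and its amplification is known in some lung adenocarcinomas and has been linked to resistance against EGFR inhibitors. Band 22q11.22 holds the immunoglobulin lambda locus, whose gene segments are joined in B cells to make the light chain. Both landmarks come from textbook knowledge of the bands. In the gene table used here, which is on GRCh38.p14 and gives names and order only, some genes along the arm are, in order, HIRA, a histone chaperone, TBX1, the transcription factor tied to the heart defects of the deletion syndrome, DGCR8, a partner in microRNA processing, and PI4KA, a lipid kinase. SNAP29, CRKL and LZTR1 follow, then PRAME, GNAZ, BCR, the fusion partner of ABL1 in chronic myeloid leukaemia, MMP11, SMARCB1, a chromatin remodeller subunit, and GGT1. SNAP29 and AIFM3 are the neighbours of CRKL.

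The 6 lists hold 10 peak-calling runs, told apart by where the peak number restarts or the peak name changes. Taking a run as a replicate is an inference, and first and second refer to the order within a list. In PC9-OR with METTL7A the first run held 2 members and the second run 237. In PC9 wild type the first run held 5 and the second 1. PC9 with METTL7A held 0 members in a run of 56 peaks. PC9-OR held 0 in runs of 9 and 1 peaks with wild type, 5 and 1 with empty vector and 1 with K86A. Runs this short cannot show an absence. Peaks in the window thus came from 2 of the 6 groups, 1 with tagged METTL7A and 1 without it. The exact 95% Poisson interval, which covers counting error only, was 210 to 271 for the PC9-OR METTL7A list, 2.202 to 13.06 for the PC9 wild-type list, and 0 to 3.69 for a list with no member.

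The share of a run's peaks set these numbers against run length. The second PC9-OR METTL7A run had 4.87% of its 4870 peaks in the window (exact Clopper-Pearson 95% interval 4.28 to 5.51%), where the window makes up 0.258% of the genome length. The first run had 2.99% of its 67 peaks there (0.364 to 10.4%). In PC9 wild type the shares were 0.437% of 1143 (0.142 to 1.02%) in the first run and 1.20% of 83 (0.0305 to 6.53%) in the second. The intervals of the first METTL7A run and both wild-type runs overlap each other. That of the second METTL7A run lies within those of the first METTL7A and second wild-type runs. The window was chosen by crowding in the list that holds the second METTL7A run. The share of that run, against length or other runs, is thus a description. The intervals take peaks as independent, though many stand in clusters, and no difference between runs is read from them. For the 0 of 56 peaks of PC9 with METTL7A the upper bound was 6.38%, and for the 9 peaks of the first PC9-OR wild-type run it was 33.6%. With empty vector it was 52.2% for the run of 5 peaks. It was 97.5% for each PC9-OR run of 1 peak, with wild type, empty vector or K86A. Lists of this length thus cannot show whether the window was crowded in those cells.

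Beside each peak stands a number of fragments at its summit and a local background, both worked out from its deposited fold and −log10 p. The most common background of a run is called its floor, and background is given below in multiples of it. The floor was 0.341 in the second and 0.676 in the first PC9-OR METTL7A run, and 0.0131 and 0.211 in the first and second PC9 wild-type runs. All 5 members of the first wild-type run rested on 2 fragments. The single member of the second wild-type run rested on 6, and the 237 members of the second METTL7A run on 4 to 17, with a median of 7.

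**Figure D1:**
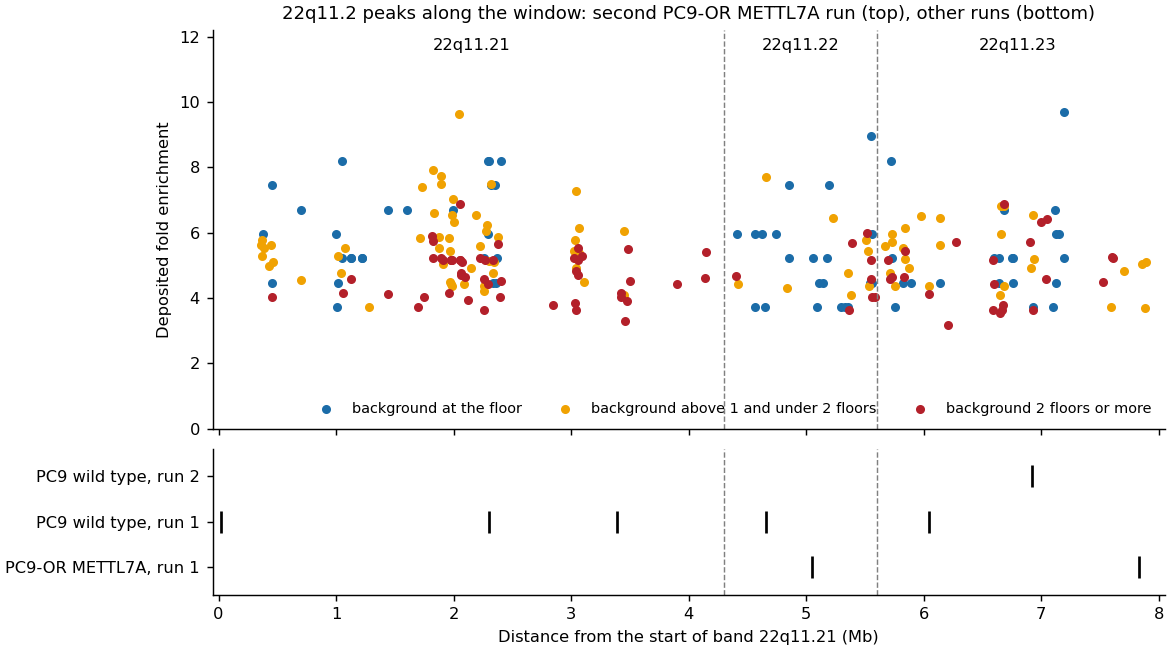
Deposited fold enrichment of each peak of the second PC9-OR METTL7A run (top, points coloured by local background in multiples of the run's floor) and positions of the members of the other 3 runs that hold any (bottom, ticks), against the distance in Mb from the start of band 22q11.21, with dashed lines at the band borders. The 237 peaks form groups separated by empty stretches, and the other runs hold 2, 5 and 1 peaks.

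Peaks of the second PC9-OR METTL7A run were about equally dense in the 3 bands. Band 22q11.21, which includes CRKL, held 128 peaks in 4.3 Mb, or 29.8 per Mb. Band 22q11.22, which includes the immunoglobulin lambda locus, held 39 in 1.3 Mb, or 30.0 per Mb. Band 22q11.23 held 70 in 2.4 Mb, or 29.2 per Mb. Over the whole genome the run had 1.57 peaks per Mb. On the rest of chromosome 22 it had 8 peaks before the window, or 0.447 per Mb of a stretch that is largely unassembled, and 91 after it, or 3.58 per Mb. Near the borders, the last peak before the window began at 17745247 with a fold of 4.30, and the first inside at 18264586 with 5.64. The last inside began at 25788137 with a fold of 5.10 and the first after it at 26160314 with 6.71.

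Within the bands the peaks were unevenly spread. In steps of 0.5 Mb the number ran from 1 to 41. The fullest step was 22:19900001-20400000, with 41 peaks, followed by 23400001-23900000 with 33, 19400001-19900000 with 30 and 24400001-24900000 with 26. The steps 20400001-20900000 and 21400001-21900000 held 1 peak each. Steps next to each other thus differed by up to 40 peaks, while the averages of the 3 bands differed by less than 1 peak per Mb.

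**Figure D2:**
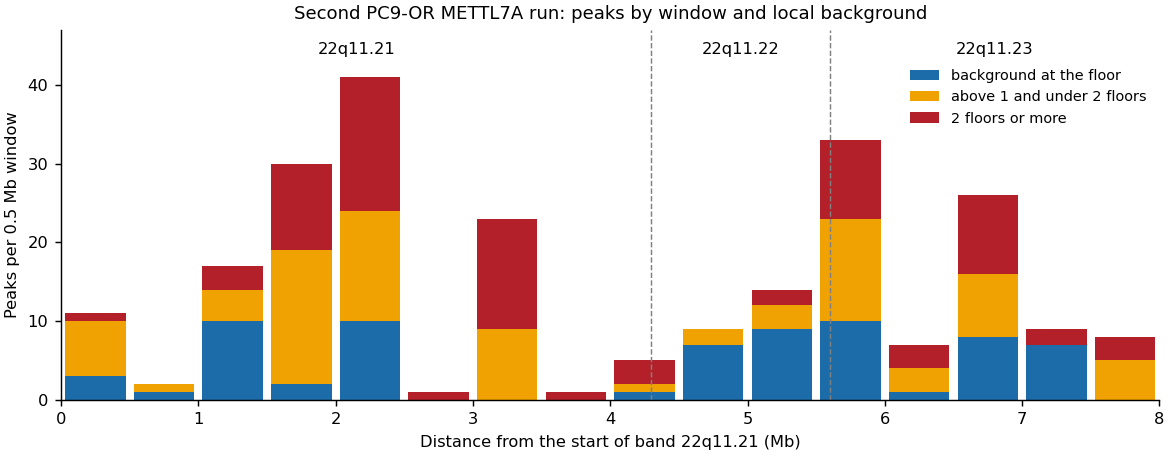
Number of second-run PC9-OR METTL7A peaks in each 0.5 Mb step from the start of band 22q11.21 (bars), split by the recovered local background of the peaks, with dashed lines at the band borders. The bars reach 41 and 33 peaks in the fullest steps and 1 in the emptiest 2. Those from 2.5 to 4 Mb and the last, from 7.5 Mb, hold no peak at the floor.

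Stretches without a peak took up much of the window. There were 11 peak-free stretches of over 200 kb, together 3.395 Mb or 42.4% of the window. The longest lay at 22:20302662-20748225 with 446 kb, then 21400365-21800215 with 400 kb and 17900001-18264585 with 365 kb, the last of these running in from the window's border. Next came 25093764-25424615 with 331 kb, 21008361-21321249 with 313 kb, 24178795-24490297 with 312 kb and 18599788-18900178 with 300 kb. Of the 11, 7 lay wholly in 22q11.21, which makes up 4.3 of the 8 Mb of the window. Coordinates of low-copy repeats on GRCh37 were not used here for any band. Whether an empty stretch coincides with a repeat, or with a gap in unique mapping, was not tested.

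Between the empty stretches the peaks stood close together. The median distance from 1 peak to the next was 5742 bp, with quartiles of 1966 and 24957 bp, and 58.9% of the 236 distances were at most 10 kb. With neighbours up to 10 kb apart joined, the 237 peaks fell into 49 clusters of 2 or more and 49 single peaks. There were 13 clusters of at least 5 peaks, which held 97 peaks or 40.9%. Over all other peaks of the run 11.9% were in clusters of at least 5, and on the rest of chromosome 22 there was no such cluster, the largest holding 3 peaks. In 20q13.32 and 20q13.33, other bands with many peaks in the run, the share was 54.0%, and in 5p15.33 it was 27.5%. The grouping of 22q11.2 peaks thus lay between those of the other crowded bands compared. The window was chosen by its crowding in this list. Its higher share than over all other peaks follows in part from that choice and is a description.

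The largest cluster, with 13 peaks in 38.5 kb of 22q11.21, ran from the peak 22:19861930-19863147 (fold 5.83, 7 fragments) to 19899858-19900399 (fold 6.34, 8 fragments). Its median background was 1.71 floors and 1 of its 13 peaks was at the floor. The next, with 12 peaks in 45.2 kb of 22q11.23, ran from 24541237-24541593 (fold 4.47, 5 fragments) to 24585712-24586430 (fold 6.90, 12 fragments). The third, with 11 peaks in 39.7 kb at the distal end of 22q11.22, ran from 23419789-23420215 (fold 5.98, 10 fragments) to 23458919-23459529 (fold 4.02, 6 fragments). In these 2 clusters 3 of 12 and 5 of 11 peaks were at the floor. With neighbours up to 50 kb apart joined, a limit set after seeing the values, the largest chain covered 22:19861930-20302661, 441 kb of 22q11.21 with 54 peaks or 22.8% of the run's members. It ended where the longest peak-free stretch of the window began.

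The leading peaks by fold were spread over all 3 bands. The highest was 22:25092508-25093763 in 22q11.23, with 12 fragments, a deposited fold of 9.70 and a −log10 q of 10.6, over a background at the floor. The next, 22:19948914-19950152 in 22q11.21, had 14 fragments, a fold of 9.62 and a −log10 q of 10.7 over 1.64 floors. The third, 22:23448005-23450407 in 22q11.22, had a fold of 8.95 with 11 fragments at the floor, and lay inside the third largest cluster. These 3 peaks rest on 11 to 14 fragments each. The peak of highest fold was the last before a stretch of 331 kb without any.

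A group of 5 peaks tied at a fold of 8.20, each with 10 fragments at the floor. They were 22:18952722-18953326, 20190960-20193417, 20204900-20205722 and 20298976-20299479 in 22q11.21 and 23623244-23624597 in 22q11.23. The 10 leading peaks were completed by 19723428-19723982 with a fold of 7.93 and 11 fragments and 19793839-19794291 with 7.75 and 10 fragments, both in 22q11.21. Of the 10, 7 were in 22q11.21, 1 in 22q11.22 and 2 in 22q11.23, beside 54.0%, 16.5% and 29.5% of the run's members.

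Folds took few distinct values because fragment numbers are small. At the floor, 4 fragments gave a fold of 3.73 in 10 peaks, 5 gave 4.47 in 15, 6 gave 5.22 in 16 and 7 gave 5.97 in 10. From there 8, 9 and 10 fragments gave 6.71, 7.46 and 8.20 in 6, 5 and 5 peaks, and single peaks stood at 8.95 and 9.70. Each further fragment thus added 0.746 to the fold. The most common number over all 237 members was 8 fragments, in 56 peaks. Between 4 and 6 fragments were found for 33.3% of the members, beside 66.1% of all other peaks of the run and 65.7% of those on the rest of chromosome 22. Over the 237 members fragments rose with local background (Spearman's rho 0.50). A peak on a higher background needs more fragments to pass the q limit, so this rho follows in part from peak calling. The contrast in fragments is thus not independent of the background described below.

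**Figure D3:**
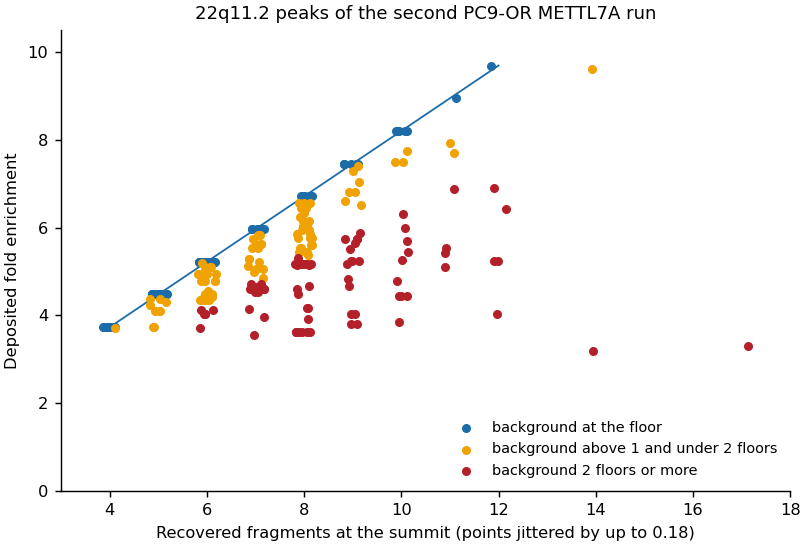
Deposited fold enrichment against recovered fragments at the summit for the 237 peaks of the second PC9-OR METTL7A run in the window (points, coloured by local background), with a line joining the peaks at the floor. Peaks at the floor climb from 3.73 at 4 fragments to 9.70 at 12, and the 2 peaks at the lower right have 14 and 17 fragments but folds of 3.19 and 3.30.

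Members stood on higher local background than other peaks of the same run. A background at the floor was found for 69 of the 237, or 29.1%, beside 58.6% over all peaks of the run. A background of at least 2 floors was found for 81, or 34.2%, beside 17.5% over the run. The median was 1.504 floors in the window and 1.00 over all other peaks. Peaks on the rest of chromosome 22 were at the floor in 61.6% and at 2 floors or more in 11.1%. In 20q13.32 and 20q13.33 these shares were 21.8% and 61.6%, and in 5p15.33 46.2% and 18.1%. The same values of background recurred, with 19 members at 2.17 floors and 13 at 4.35, or 8.02% and 5.49%, beside 3.82% and 1.12% of the other peaks of the run. The window was chosen on this run, whose peaks are not replicates, so these shares describe the run and carry no test. No source used here gives the control, so the library behind the background is not known. The cause of the higher background, copy number included, was not tested.

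Band by band the background differed. In 22q11.21 20.3% of the peaks were at the floor and 39.1% at 2 floors or more, with a median of 1.64 floors. In 22q11.22 these shares were 56.4% and 20.5%, with a median of 1.00. In 22q11.23 they were 30.0% and 32.9%, with a median of 1.37. The band of the immunoglobulin lambda locus thus stood near the rest of the run, and the band of CRKL farthest from it.

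**Figure D4:**
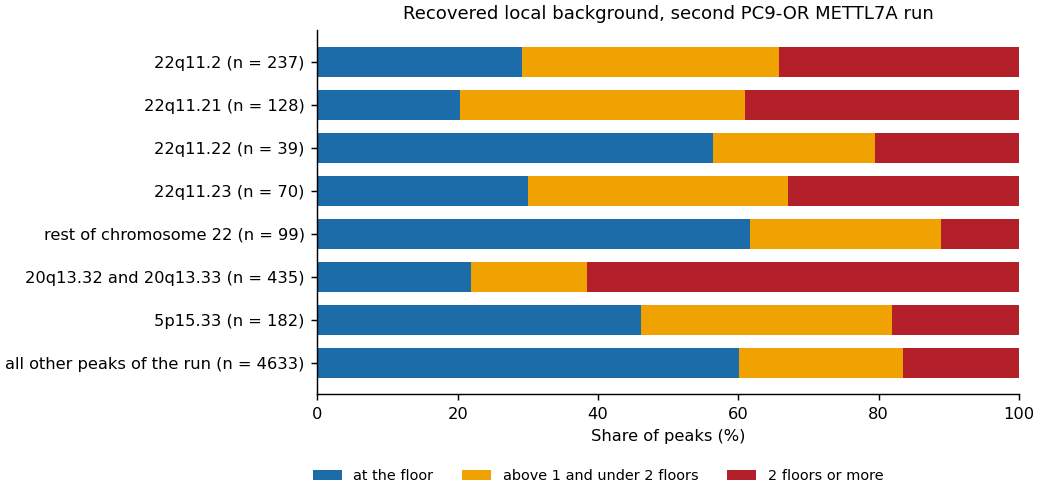
Share of second-run PC9-OR METTL7A peaks (bars, in percent) with a recovered local background at the floor, above 1 and under 2 floors, and of 2 floors or more, for the window, its 3 bands and other parts of the run, with the number of peaks in brackets. The share at the floor is 20.3% in 22q11.21 and 56.4% in 22q11.22, beside 60.1% over all other peaks.

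Background also differed between 2 neighbouring segments, which were picked after their values had been seen. In distal 22q11.21, at 22:20400001-22200000, 0 of 27 peaks were at the floor and 18 were at 2 floors or more. In 22:22200001-23400000, which covers most of 22q11.22, 17 of 26 were at the floor and 3 at 2 floors or more. The first of these held 15.0 peaks per Mb and the second 21.7, with medians of 8 and 6 fragments and of 4.83 and 4.72 in fold. CRKL was placed by band only, so no segment of 22q11.21 is assigned to it. Proximal 22q11.21, at 17900001-20400000, held 40.4 peaks per Mb with 25.7% at the floor.

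The highest backgrounds belonged to single peaks. The peak 22:21356156-21356640 in distal 22q11.21 stood on 13.0 floors and had the most fragments of all members, 17, but a fold of 3.30. The peak 22:24109854-24110228 in 22q11.23 stood on 10.9 floors with 14 fragments and had the lowest fold, 3.19. Next were 23487567-23487901 at 6.52 floors and 20935766-20936699 at 5.47. These 4 peaks had a −log10 q between 1.76 and 2.43.

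Members had somewhat higher folds and more fragments than the other peaks of the run. Their median fold was 5.17 with quartiles of 4.47 and 5.89, beside 4.59 with 4.45 and 5.22 over all other peaks. Median fragments were 7 and 6, at least 10 fragments were found for 14.3% and 9.54%, and median widths 467 and 396 bp. The fragment numbers are not independent of the higher background of the members. At a −log10 q of at least 5 stood 33 of the 237, or 13.9%, beside 8.83% over the run. Of these 33, 21 were in 22q11.21, 4 in 22q11.22 and 8 in 22q11.23, and 18, or 54.5%, were at the floor. Over the run 170 of the 430 peaks past that limit, or 39.5%, were at the floor.

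Peak width ranged from 315 to 2458 bp. Wide peaks of at least 1000 bp, a split made after seeing the values, numbered 22, with a median fold of 5.97 and 59.1% at the floor, beside 5.17 and 26.0% for the 215 narrower ones. The widest, 22:20190960-20193417 with 2458 bp and 23448005-23450407 with 2403 bp, are both among the 10 of highest fold. Over the 237 peaks Spearman's rho was 0.30 between width and fold, and −0.28 between background and fold, which enters the fold itself. Peaks of 1 library share its depth, and a rho across them is a description.

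The other runs added 8 members. In the first PC9-OR METTL7A run they were 22:22947174-22947451 in 22q11.22, with a fold of 4.84, 11 fragments and 2.19 floors, and 25735066-25735299 in 22q11.23, with 4.38, 8 fragments and 1.56 floors. They were the only 2 peaks of that run on chromosome 22. They lay 13.7 and 24.6 kb from the nearest second-run peak. Neither overlapped a second-run peak by 1 bp, beside 2.99% of all 67 peaks of the first run. With 2 members nothing is read from this.

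In the first PC9 wild-type run the members were 22:17919557-17919825, 20199635-20199896 and 21291690-21292081 in 22q11.21, 22556786-22557031 in 22q11.22 and 23947015-23947327 in 22q11.23. Each had 2 fragments, a fold between 2.94 and 2.96 and a −log10 q of 1.34, at the edge of the deposited threshold. The member of the second wild-type run was 22:24825689-24826038 in 22q11.23, with 6 fragments at the floor, a −log10 q of 2.66 and a fold of 5.78. Cells without the tagged protein thus gave a peak in each of the 3 bands.

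None of the 245 members overlapped a member of another run by 1 bp. Over whole runs, 0.175% of the first and 15.7% of the second wild-type run's peaks, and 2.99% of the first METTL7A run's, lay on a peak of the second METTL7A run. In the other direction 0.37% of that run's peaks lay on a peak of any other run or list. With 5, 1 and 2 members in the other runs, a share of this size could not be seen, and nothing is read from the 0.

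Several wild-type members lay beside, but not on, a METTL7A peak. The distances to the nearest second-run PC9-OR METTL7A peak were 554, 575 and 625 bp for 3 of the 5 first-run wild-type members and 960 bp for the second-run member. The other 2 lay 29.2 and 345 kb away. With peaks of both runs widened by 1 kb, 3 of 5 and 1 of 1 overlapped, beside 1.75% and 25.3% over those runs, and 0 of 2 first-run METTL7A members, beside 14.9%. Of the window, 10.7% lies within 2 kb of a second-run METTL7A peak, and the part of crowding in these neighbours was not tested. The 4 neighbouring METTL7A peaks had folds of 4.36, 7.70, 5.13 and 3.73.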

How the data were processed

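Of 24 libraries in 12 groups of 2, taken from the sample titles, 12 were MYC-tag immunoprecipitations. Per the labels' protocols, 20 ug of chromatin entered each and paired-end reads were sequenced; read totals were not used here. Per the submitters' processing notes, tools included Bowtie2 2.4.2, MACS2 2.2.7.1 and bedtools 2.30, with GRCh37; no source used here gives the settings or the control. The deposited lists give for each peak the authors' coordinates, score, fold ratio at the summit, −log10 p and −log10 q (all q at most 0.05). Printed coordinates are 1-based.

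Whole fragments k and background b were solved from fold = (k + 1) / (b + 1) and p = P(X > k) under Poisson(b), within 1 unit of the last deposited digit. All 6236 peaks were solved, with 0 ambiguous. On simulated data 300 of 300 pairs were recovered and 0 of 300 decoys accepted. The simulated pairs had more fragments and higher backgrounds than the members of the first PC9 wild-type run, which have 2 fragments. Simulated backgrounds were also above the 0.211 of the second wild-type run's member. Recovery for the wild-type members was thus not tested on simulated data. A floor needed at least 5 peaks; "at the floor" allows 1%. Bands came from circlize 0.4.16; Python 3.11.15, scipy 1.17.1 and pandas 2.3.3 were used. Peaks are not replicates and no test was run; intervals cover counting error only. Named peaks are the 10 highest folds, the 3 highest fragment numbers, the ends of the 3 largest clusters and all members of other runs; others were chosen after their values were seen. Of the listed genes only names and order are used. The members and lists were chosen with earlier results of these data known. Alternatives varied the q and fragment limits, merging, gaps, overlap, floor and runs.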

Additional observations from a re-analysis of the deposited data

Results flagged for a closer look

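The mean number of 22q11.2 peaks per run was lower with METTL7A than in wild type in PC9 and higher in PC9-OR. METTL7A minus wild type was -3 peaks per run in PC9, from 0 in 1 METTL7A run against 5 and 1 in the wild-type runs. As shares of their runs these are 0% of 56 peaks, with an exact 95% upper bound of 6.38%, against 0.437% of 1143 and 1.20% of 83, so a lower share in PC9 with METTL7A was not detectable. METTL7A minus wild type was 119.5 in PC9-OR, from 2 and 237 against 0 and 0. As shares of their runs these are 2.99% of 67 and 4.87% of 4870 peaks, against 0% of 9 and of 1. The exact 95% upper bounds of these wild-type runs were 33.6% and 97.5%, so a higher share in PC9-OR with METTL7A was not detectable. The difference between the lines was not tested. Without the second PC9-OR METTL7A run the value in that line rests on 2 peaks, and the 5 peaks of the first PC9 wild-type run have 2 fragments each.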

How the results depend on the processing

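No paired analysis was possible because the peak lists carry no test between groups and most runs carry no replicate number. Of 63 values of 13 results under other settings, 33 stayed within 1.5 times a count or within the 95% interval of a share or median, and 30 did not; the cause was not tested beyond the fewer peaks each setting leaves.

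With −log10 q limited to 5 or more, the PC9-OR METTL7A list kept 33 of 239 members and 7.57% instead of 4.84% of its peaks, with 4.88, 3.08 and 3.33 per Mb in 22q11.21, 22q11.22 and 22q11.23 instead of 29.8, 30.8 and 29.6. It then had 0 instead of 13 clusters of at least 5 peaks, and medians of 7.46 instead of 5.17 in fold, 9 instead of 8 fragments, 670 instead of 464 bp and 1.00 instead of 1.504 floors. The PC9 wild-type list had 0 members and 0% instead of 6 and 0.489%, and with at least 5 fragments 1 and 1.20%. Merging within 10 kb left 100 members and 2.76%. Peaks at the floor had a median of 6 fragments, and widening by 1 kb raised overlapping members from 0 to 5. These were 2.11% of the 237 members of the second run, beside 1.23% of all its 4870 peaks.

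With each run left out in turn, the PC9-OR METTL7A list ranged from 2 to 237 members, 2.99 to 4.87%, 0 to 29.8, 0.769 to 30.0 and 0.417 to 29.2 per Mb in the 3 bands, 0 to 13 clusters, and medians of 4.61 to 5.17 in fold, 7 to 9.5 fragments, 256 to 467 bp and 1.504 to 1.87 floors. Leaving out the second run gave the lower end of each range except those of fragments and floors, where it gave the higher end. The wild-type list ranged from 1 to 5 members and 0.437 to 1.20%. The small number of fragments per peak, and wild-type, empty-vector and K86A runs of 1 to 9 peaks in PC9-OR, limit what depth can show.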
